A study of Mus musculus with 12 samples.

Results

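The lecticans, the link proteins and the tenascins are the main building blocks of the matrix that surrounds brain cells. The 10 genes described here were chosen by symbol, as genes of the brain matrix, with earlier results of these data known, out of 55471 genes in the count table: the 4 lecticans *Acan*, *Bcan*, *Ncan* and *Vcan*, the link proteins *Hapln1* and *Hapln4*, the tenascins *Tnc* and *Tnr*, and the membrane proteoglycans *Ptprz1* and *Cspg5*. All 10 had enough reads to be tested, among 19578 genes. RNA-seq libraries were made from primary hippocampal neurons of wild-type mice, prepared from E17 CD1 embryos of mixed-sex litters. The cultures received lipid nanoparticles with negative control gapmers (control, 6 libraries) or with gapmers against the lncRNA *Neuid* (*Neuid* KD, 6 libraries; NeuID in the labels) at day 7 in vitro (DIV 7), and RNA was isolated at DIV 10. Gapmers are antisense oligonucleotides that lead RNase H to cut their target RNA. The sources used here do not say whether the 6 libraries of a group came from separate cultures or litters. The study's figure legend for *Neuid* knockdown in its RNA-seq samples gives an n below 6. The p-values thus measure the spread between these libraries, which may be technical.

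Lecticans are chondroitin sulfate proteoglycans that bind hyaluronan through their N-terminal domain and tenascins through their C-terminal domain. Link proteins clamp the bond between lectican and hyaluronan, and tenascin-R, a trimer, joins lecticans to each other, so that together they form the loose matrix of the brain and the dense perineuronal nets around some neurons. In the brain, neurons and glia share the work of making these components. Astrocytes and oligodendrocyte precursors are known sources of *Bcan* and *Ptprz1*, and neurons of *Acan* and several link proteins. Bulk libraries hold all cells of a culture, so more cells of a type and more RNA per cell cannot be told apart.

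*Neuid* (Gm10419), the targeted RNA, was at 25.97 to 31.01 CPM (counts scaled to the library size, which was adjusted by the TMM method) in control libraries and at 6.32 to 9.55 CPM in *Neuid* KD libraries, a log2 fold change of -1.81 (SE 0.0845, adjusted p = 1.32e-10). The protein-coding gene Gm42517 (18.7 CPM) overlaps *Neuid* on the opposite strand. The sources used here do not give the strand setting of the counting, so reads of these genes may be mixed. Depth was 18002585 to 30914714 reads on genes in control and 11152556 to 30573480 in *Neuid* KD, and the shallowest library was *Neuid* KD replicate 1. Reads on chemosensory receptor genes, a measure of background reads, reached at least 100 CPM in 4 control and 3 *Neuid* KD libraries and stayed under it in 2 control and 3 *Neuid* KD libraries. Fold changes within these sets are given beside the pooled ones.

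Transcripts of 5 of the 10 genes rose in *Neuid* KD and 0 fell, at an adjusted p under 0.05 in edgeR's quasi-likelihood test. By the same measure, 6.31% of all tested genes rose and 2.42% fell. No member was lower at an unadjusted p under 0.05 either. DESeq2 gave the same counts, 5 and 0, beside 1496 higher and 1004 lower among all tested genes. The increase was largest for *Bcan* (brevican), followed by *Ptprz1* (the receptor-type phosphatase whose secreted splice form is phosphacan), *Ncan* (neurocan), *Cspg5* (neuroglycan C) and *Vcan* (versican). *Acan* (aggrecan), *Hapln1*, *Hapln4*, *Tnc* and *Tnr* did not pass. An increase above 0.5 on the log2 scale was reached by 4 of the 10 genes and by 2.44% of all tested genes. In the same 4 genes, all 6 *Neuid* KD libraries lay above all 6 control libraries, as they did for 4.13% of all tested genes.

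**Figure D1:**
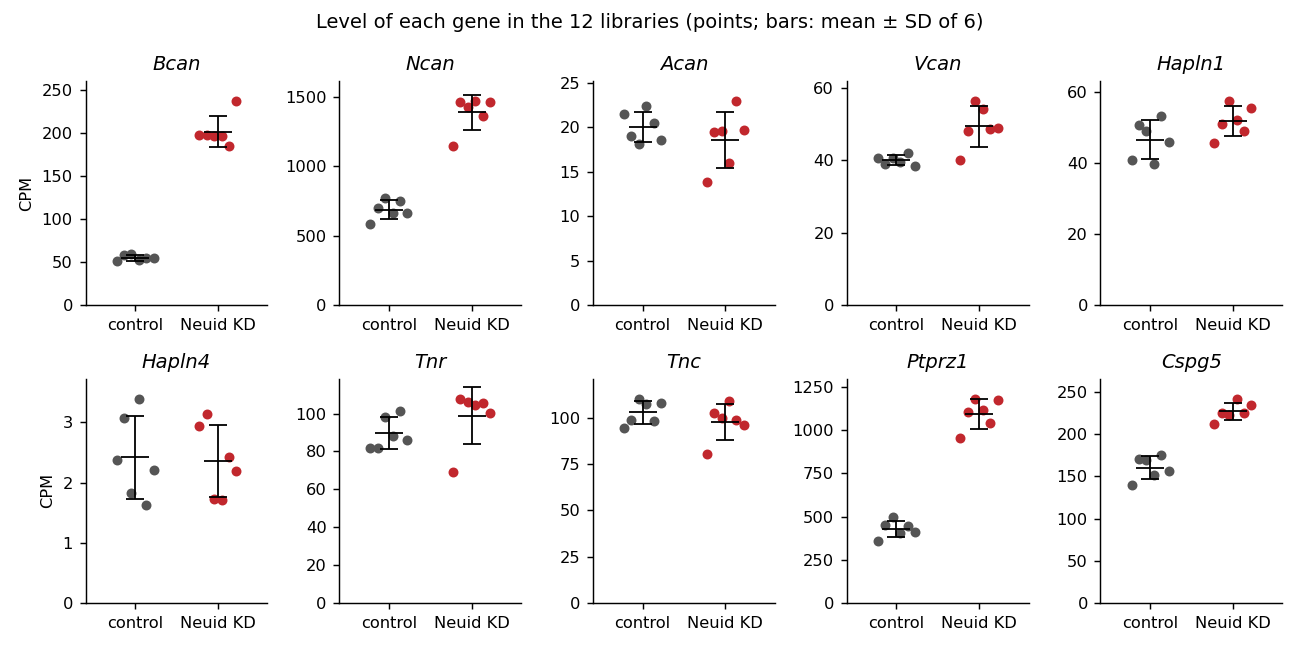
Level of each of the 10 genes in CPM (y axis, from 0, with a scale of its own per panel) in the 6 control (grey) and 6 *Neuid* KD (red) libraries. Points are libraries, in the order of their replicate numbers from left to right, and bars give the mean ± SD. *Bcan*, *Ncan*, *Ptprz1* and *Cspg5* show no overlap between the groups, whereas the other 6 genes overlap.

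The stretches of 250 bases upstream of the RefSeq start of the 3 genes with the largest increases are shown because these genes rose together. They are from RefSeq (GRCm38.p6), are written 5′ to 3′ on the strand of the gene, and have the motifs that were searched for in capitals. The gene *Bcan* is on the minus strand of chromosome 3, *Ptprz1* on the plus strand of chromosome 6 and *Ncan* on the minus strand of chromosome 8.
Bcan, chr3:88000357-88000606: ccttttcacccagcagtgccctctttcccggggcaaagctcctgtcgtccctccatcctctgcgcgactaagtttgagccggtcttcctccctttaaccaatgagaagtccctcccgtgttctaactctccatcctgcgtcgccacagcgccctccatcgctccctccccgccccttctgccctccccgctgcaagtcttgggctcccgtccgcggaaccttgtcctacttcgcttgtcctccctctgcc
Ptprz1, chr6:22875252-22875501: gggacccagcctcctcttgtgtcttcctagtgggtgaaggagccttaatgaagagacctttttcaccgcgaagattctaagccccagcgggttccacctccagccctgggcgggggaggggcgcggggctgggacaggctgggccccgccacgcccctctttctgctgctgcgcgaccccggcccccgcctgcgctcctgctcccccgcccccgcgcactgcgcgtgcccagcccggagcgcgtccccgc
Ncan, chr8:70120845-70121094: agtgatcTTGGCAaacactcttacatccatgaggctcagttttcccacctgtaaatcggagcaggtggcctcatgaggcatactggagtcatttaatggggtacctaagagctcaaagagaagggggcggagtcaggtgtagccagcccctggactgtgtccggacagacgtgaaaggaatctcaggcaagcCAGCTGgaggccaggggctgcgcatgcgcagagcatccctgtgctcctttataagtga
Of 7 short motifs searched on both strands, the *Ncan* window held TTGGCA, a motif of nuclear factor I, and the E-box CAGCTG, which 12.3% and 13.0% of all 32851 promoter windows also hold. The windows of *Bcan* and *Ptprz1* held neither of these, nor the SOX motifs ACAATG and ACAAAG, the E-box CATATG, the AP-1 motif TGAGTCA or the TEAD motif GGAATG. Their GC content was 62.0% and 71.6%, against 54.4% for *Ncan* and a median of 52.4% over all windows. Among the other members, *Acan* held CAGCTG and GGAATG, *Tnr* held ACAAAG and *Tnc* held TTGGCA in 1 of its windows, while the windows of *Vcan* and *Hapln1* held none of the 7. *Cspg5* and *Hapln4* had no entry. A match of this length is a description of the letters and not a binding site.

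Among the lecticans, *Bcan*, which encodes the smallest of the 4 core proteins and is specific to nervous tissue, ranged from 51.4 to 59.5 CPM in control libraries (median 54.5) and from 185 to 237 CPM in *Neuid* KD libraries (median 197). The other 5 libraries of the KD group lay between 185 and 199 CPM, below replicate 6. The 3.67-fold increase (log2 fold change 1.87, SE 0.0622, adjusted p = 2.39e-12) was the rank 19 increase among the 1235 genes that rose. *Ncan*, the other lectican specific to it, ranged from 587 to 776 CPM in control (median 682) and from 1144 to 1468 CPM in *Neuid* KD (median 1445), a 2.01-fold increase (log2 fold change 1.01, SE 0.0721, adjusted p = 2.79e-08). Its lowest KD value was that of replicate 1, which still exceeded every control. Within the libraries with more and with less background the log2 fold change was 1.94 and 1.76 for *Bcan* and 1.03 and 0.90 for *Ncan*.

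*Vcan*, which codes for the large lectican found in many tissues besides the brain, rose far less. It ranged from 38.5 to 42.1 CPM in control (median 40.2) and from 40.1 to 56.3 CPM in *Neuid* KD (median 48.9), with a log2 fold change of 0.31 (SE 0.0655, adjusted p = 0.00493). The groups overlapped through replicate 1 of *Neuid* KD, and the other 5 KD libraries lay above every control. The call was lost in the 7 libraries with more background (log2 fold change 0.24, adjusted p = 0.254), without a filter on low counts (adjusted p = 0.0543) and with offsets for GC content and length (adjusted p = 0.609). An antisense transcript, Gm4117 (5.52 CPM), overlaps *Vcan* on the opposite strand, and the strand setting of the counting is not given in the sources used here, so the reads of the pair may be mixed.

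*Acan*, the lectican that marks perineuronal nets, did not follow the other 3. It ranged from 18.1 to 22.5 CPM in control (median 19.8) and from 13.9 to 22.9 CPM in *Neuid* KD (median 19.5). The lowest and the highest of the 12 libraries were both KD libraries, and the log2 fold change was -0.10 (SE 0.0960, adjusted p = 0.724). In the 7 libraries with more and the 5 with less background it was -0.08 and -0.11.

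**Figure D2:**
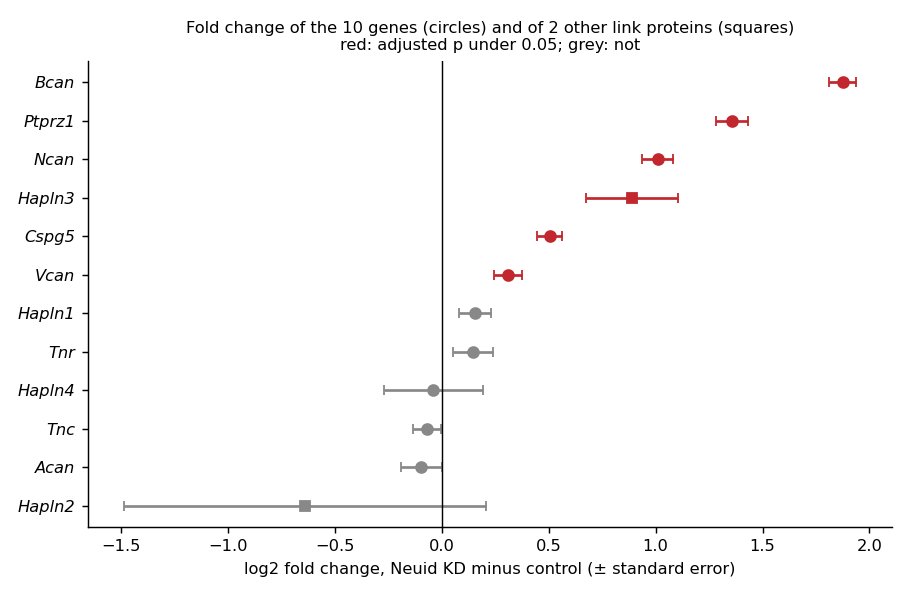
Log2 fold change between *Neuid* KD and control (x axis) with its standard error for the 10 genes (circles) and the link proteins *Hapln2* and *Hapln3* (squares). Red marks an adjusted p under 0.05. *Bcan* (1.87), *Ptprz1* (1.36) and *Ncan* (1.01) lie farthest to the right, followed by *Cspg5* (0.50) and *Vcan* (0.31), and the remaining members lie between -0.10 and 0.16.

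The ratio of a pair of genes within a library does not depend on the scaling between libraries, and 9 such pairs were compared with two-sided exact permutation tests over all arrangements of 6 against 6 libraries. *Bcan* rose more than *Ncan*: the log2 ratio *Bcan*/*Ncan* increased by 0.86 (SE 0.0753), from -3.64 ± 0.0927 to -2.78 ± 0.160 (SD, n = 6 per group), with an exact p of 0.00216, the smallest this design allows, and 0.00325 after Benjamini-Hochberg adjustment over the 9 pairs. The same exact p was reached by *Bcan*/*Acan* (increase of 1.99, SE 0.141), *Bcan*/*Vcan* (1.58, SE 0.0958), *Ncan*/*Acan* (1.13, SE 0.128) and *Ncan*/*Vcan* (0.72, SE 0.0683). The *Acan*/*Vcan* ratio fell by 0.42 (SE 0.106, adjusted exact p = 0.00557). Thus each of the 6 pairs of lecticans differed in its change, in the order *Bcan*, *Ncan*, *Vcan* and *Acan*.

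Levels were compared between genes per kb of exon length. This is the length of all annotated exons merged and not of the isoforms present, so the comparison is approximate. By this measure *Ncan* was the most abundant lectican transcript in both groups. Its level was 95.8 ± 9.37 CPM per kb in control and 193 ± 17.4 in *Neuid* KD (SD, n = 6). The summed level of the 4 lecticans was 115 ± 9.88 CPM per kb in control and 248.6 ± 19.6 in *Neuid* KD. Of this sum, *Bcan* made up 11.8% ± 0.622 in control and 20.1% ± 1.83 in *Neuid* KD. The share of *Ncan* was 83.4% ± 1.04 and 77.6% ± 1.71, that of *Vcan* 2.43% ± 0.214 and 1.37% ± 0.105, and that of *Acan* 2.36% ± 0.364 and 1.00% ± 0.154 (SD, n = 6 per group). These shares are a description of RNA, with no test of their own, and say nothing of the amount of protein.

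**Figure D3:**
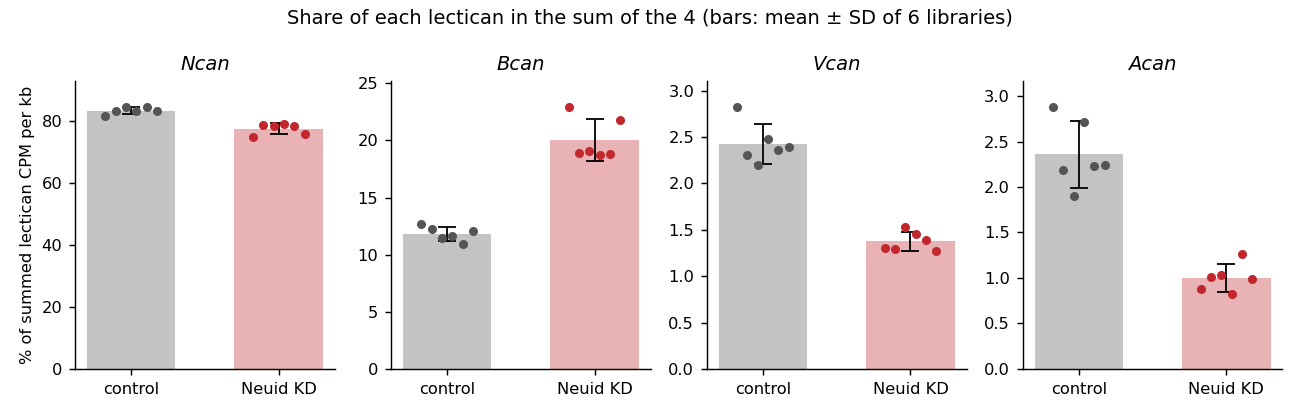
Share of each lectican in the summed CPM per kb of the 4 lecticans (y axis, percent, from 0, with its own scale per panel). Bars are the mean of 6 libraries with SD, and points are libraries. In *Neuid* KD, *Bcan* went from 11.8% to 20.1% of the sum, while the shares of *Ncan*, *Vcan* and *Acan* were lower in every KD library than in any control library.

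Of the link proteins, only *Hapln3*, at a low level, passed the test. *Hapln1*, which stabilizes aggrecan and versican on hyaluronan, ranged from 39.6 to 53.2 CPM in control (median 47.4) and from 45.6 to 57.3 CPM in *Neuid* KD (median 51.5). The groups overlapped widely, with 2 KD libraries above every control, and the log2 fold change of 0.16 (SE 0.0751) did not pass (adjusted p = 0.280). *Hapln4*, the link protein that partners with brevican, was the least abundant of the 10 genes, with 35 to 73 reads per control library and 35 to 81 per KD library. It ranged from 1.62 to 3.39 CPM in control (median 2.30) and from 1.71 to 3.14 CPM in *Neuid* KD (median 2.31), and the log2 fold change of -0.04 had a standard error of 0.234 (adjusted p = 0.959), with a sign that changed between settings. At this depth a difference of the size seen for *Vcan* was not detectable in *Hapln4*. The *Hapln1*/*Hapln4* ratio differed by 0.18 between the groups (SE 0.279, exact p = 0.524).

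The other two link proteins lay near the limit of detection. *Hapln3* ranged from 1.13 to 1.90 CPM in control (median 1.37) and from 1.77 to 3.08 CPM in *Neuid* KD (median 2.81), with 5 of 6 KD libraries above every control, and it passed the test (log2 fold change 0.89, SE 0.217, adjusted p = 0.0136). Without *Neuid* KD replicate 5 the adjusted p was 0.0535, and the call was also lost in the libraries with more background (0.279) and without a filter on low counts (0.108). *Hapln2*, the link protein of the nodes of Ranvier, held 1 to 38 reads per library and did not pass (log2 fold change -0.64, SE 0.847, adjusted p = 0.805).

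In vertebrates the lectican and link protein genes lie next to each other in pairs, and in the GENCODE annotation of GRCm38 no gene was annotated between the 2 genes of any of the 4 pairs. *Bcan* and *Hapln2* are 21.5 kb apart on chromosome 3 and have the same orientation, *Ncan* and *Hapln4* converge at 2.22 kb on chromosome 8, *Vcan* and *Hapln1* converge at 43.7 kb on chromosome 13, and *Acan* and *Hapln3* converge on chromosome 7 with 2 bases between their ends. Within the pairs the lectican rose and the link protein did not pass for *Bcan*, *Ncan* and *Vcan*, whereas in the *Acan* pair only *Hapln3* passed. Given the gap of 2 bases and the unknown strand setting, reads at the 3′ ends of *Acan* and *Hapln3* are uncertain.

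Neither tenascin passed the test. *Tnr* ranged from 82.0 to 101 CPM in control (median 87.2) and from 69.0 to 108 CPM in *Neuid* KD (median 105), with a log2 fold change of 0.15 (SE 0.0923, adjusted p = 0.474). The lowest KD value was that of replicate 1, and the other 5 KD libraries lay between 101 and 108 CPM. *Tnc*, the hexameric tenascin of developing and injured tissue, ranged from 94.5 to 110 CPM in control (median 103) and from 80.5 to 109 CPM in *Neuid* KD (median 99.1), and its log2 fold change was -0.07 (SE 0.0649, adjusted p = 0.689). Relative to each other the tenascins shifted by a small amount, as the log2 ratio *Tnc*/*Tnr* fell by 0.21 (SE 0.0752, exact p = 0.0325, adjusted over the 9 pairs 0.0365). This call was lost when control replicate 1, 2, 4 or 6 or *Neuid* KD replicate 2, 3, 5 or 6 was left out, with an adjusted exact p of 0.0584 to 0.0682. The remaining tenascins, *Tnn* (log2 fold change -0.82, adjusted p = 0.719) and *Tnxb* (-0.54, adjusted p = 0.730), were at about 1 to 3 CPM and did not pass either. None of the 4 tenascins had an unadjusted p under 0.05 in edgeR's test, and none passed in DESeq2.

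Both membrane proteoglycans rose. *Ptprz1*, the receptor for pleiotrophin and midkine and a binding partner of contactins and tenascins, ranged from 358 to 497 CPM in control (median 430) and from 954 to 1181 CPM in *Neuid* KD (median 1113). The groups were far apart, and the 2.56-fold increase (log2 fold change 1.36, SE 0.0736, adjusted p = 6.73e-10) was 1.39 and 1.23 on the log2 scale within the libraries with more and with less background. *Cspg5*, a transmembrane proteoglycan with an EGF-like domain, ranged from 139 to 175 CPM in control (median 163) and from 213 to 242 CPM in *Neuid* KD (median 226). Every KD library exceeded every control, although the increase was 1.42-fold (log2 fold change 0.50, SE 0.0576, adjusted p = 9.42e-06), just at the threshold of 0.5, and it was 0.55 and 0.39 within the sets of libraries. With offsets for GC content and length the call was lost (log2 fold change 0.49, adjusted p = 0.0837). The increase of *Ptprz1* exceeded that of *Cspg5* by 0.85 on the log2 scale (SE 0.0475, exact p = 0.00216, adjusted 0.00325).

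**Figure D4:**
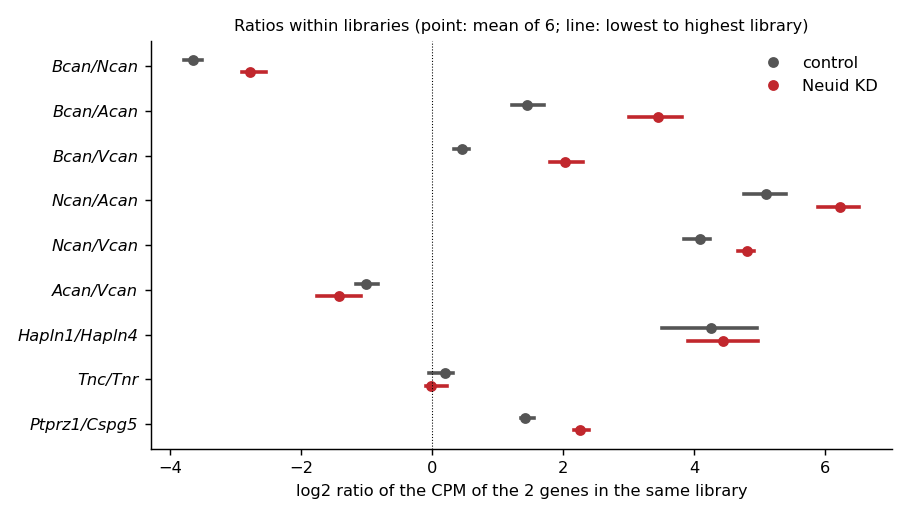
Log2 ratio of the CPM of 2 genes within the same library (x axis) for the 9 pairs compared. Points are the mean of 6 control (grey) or 6 *Neuid* KD (red) libraries, and lines run from the lowest to the highest library. The ranges do not overlap for the *Bcan* and *Ncan* pairs and for *Ptprz1*/*Cspg5*, and they overlap for *Hapln1*/*Hapln4*, *Tnc*/*Tnr* and *Acan*/*Vcan*.

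Ordered by CPM per kb, the control cultures expressed *Ncan* (95.8), *Ptprz1* (30.0), *Cspg5* (15.9), *Bcan* (13.5), *Tnc* (13.2), *Hapln1* (7.87), *Tnr* (6.97), *Vcan* (2.77), *Acan* (2.68) and *Hapln4* (0.616). Ranges over libraries overlapped between the neighbours *Cspg5* and *Bcan*, *Bcan* and *Tnc*, *Hapln1* and *Tnr*, and *Vcan* and *Acan*. In *Neuid* KD the order was *Ncan* (193), *Ptprz1* (76.9), *Bcan* (49.7), *Cspg5* (22.6), *Tnc* (12.6), *Hapln1* (8.76), *Tnr* (7.69), *Vcan* (3.42), *Acan* (2.49) and *Hapln4* (0.601), with overlap between *Hapln1* and *Tnr* and between *Vcan* and *Acan*. *Bcan* thus stood clear of *Cspg5* and *Tnc* in *Neuid* KD libraries, from which its range could not be separated in control libraries.

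Other genes of the matrix were read from lists written by family and role. Of 22 receptors, ligands and partners of the members, 8 rose and 2 fell, beside 6.31% and 2.42% of all tested genes. The median log2 fold change was 0.09, against -0.03 over all tested genes. Increases were largest for *Egfr*, the EGF receptor (log2 fold change 1.43, adjusted p = 4.91e-12), *Ptn*, which encodes pleiotrophin (1.27, adjusted p = 6.69e-10), *Itgb8*, an integrin subunit (1.05, adjusted p = 6.69e-10), and *Mdk*, which encodes midkine (0.53, adjusted p = 0.000746). Of the binding partners of *Ptprz1*, the ligands encoded by *Ptn* and *Mdk* thus rose along with it, whereas the tenascins did not pass and the contactin *Cntn1*, given below, fell. Median levels in control and KD libraries were 275 and 669 CPM for *Ptn*, without overlap, and 18.9 and 26.95 CPM for *Mdk*, with overlap. The contactins *Cntn1* (-0.32, adjusted p = 0.000997) and *Cntn5* (-0.35, adjusted p = 0.00480), adhesion molecules of the neuronal surface, fell. The calls of *Cntn1* and *Cntn5* were each lost in 3 of 23 alternative settings (highest adjusted p 0.421 and 0.960) and that of *Mdk* in 1 (0.183). The number of genes of the list that rose was 5 without control replicate 2 or without *Neuid* KD replicate 2, 3 or 5, and 3 to 5 without a filter on low counts, in the libraries with more background and with GC and length offsets. The number that fell was 0 to 4 over the settings.

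Chains of chondroitin sulfate are built on the core proteins by a series of transferases. Of 21 tested genes for their synthesis, 4 rose and 1 fell, beside 6.31% and 2.42% of all tested genes. The median log2 fold change was 0.06, and *Chst13* had too few reads. *Xylt1*, a xylosyltransferase that starts the chains, was at 36.2 CPM (SD 2.70) in control and at 93.9 CPM (SD 8.12) in *Neuid* KD (log2 fold change 1.38, adjusted p = 1.81e-10). Also higher were *Chst7*, a 6-O-sulfotransferase (1.64, adjusted p = 0.00232, at 0.811 and 2.52 CPM), *Csgalnact1*, which adds the first N-acetylgalactosamine (0.88, adjusted p = 0.00164), and the chondroitin synthase *Chsy1* (0.35, adjusted p = 0.000107). *Chst15*, which adds the second sulfate of the disulfated E unit, fell by 0.43 on the log2 scale (adjusted p = 0.00172). *Chst7*, *Chsy1* and *Chst15* each lost the call in 1 of 23 alternative settings.

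Hyaluronan is the backbone to which lecticans bind. Of 12 tested genes of its synthesis, binding and breakdown, 0 rose and 2 fell in edgeR's test. Over all tested genes 6.31% rose and 2.42% fell, so that a count of 0 risen among 12 is near the background. None was higher at an unadjusted p under 0.05 or in DESeq2, and 3 were lower by each of these. DESeq2 called 1004 of all tested genes lower. The synthase *Has3* (log2 fold change -0.54, adjusted p = 0.0164) and the hyaluronan-degrading *Cemip* (-0.45, adjusted p = 0.000401) were lower, and *Lyve1* and *Spam1* had too few reads. The call of *Has3* was lost in 2 of 23 alternative settings (highest adjusted p 0.261). Of 12 tested lectican-cleaving proteases and their inhibitors, 3 rose and 1 fell, beside the same 6.31% and 2.42% of all tested genes. Too few reads were found for *Mmp3* and *Timp1*. The inhibitors *Timp4* (2.04, adjusted p = 3.05e-08) and *Timp3* (0.57, adjusted p = 7.24e-07) and the gelatinase *Mmp2* (1.70, adjusted p = 0.000135) were higher, and the protease *Adamts1* was lower (-0.37, adjusted p = 9.44e-05), and *Timp3* and *Adamts1* each lost the call in 1 of 23 alternative settings.

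Of 24 other proteoglycans tested, 6 rose and 0 fell in edgeR's test, beside 6.31% and 2.42% of all tested genes. The median log2 fold change was 0.04, and *Srgn* had too few reads. At an unadjusted p under 0.05, a looser threshold than that of these shares, 9 were higher and 3 lower. DESeq2 called 6 and 2, beside 1496 higher and 1004 lower among all tested genes. The glypicans *Gpc6* (1.57, adjusted p = 8.79e-09) and *Gpc5* (1.20, adjusted p = 9.26e-06) and the syndecan *Sdc4* (0.77, adjusted p = 1.71e-06) rose most. *Spock1*, a testican, passed with a small increase (0.24, adjusted p = 0.0398) that lost its call when any single library other than control replicates 3 and 5 and *Neuid* KD replicate 1 was left out (adjusted p 0.0717 to 0.208). In those same 9 fits, and in 4 other settings, 3 genes of the list rose in place of 6. *Cspg4*, *Cd44*, *Sdc3*, *Dcn* and *Lum* stand in more than 1 list.

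**Figure D5:**
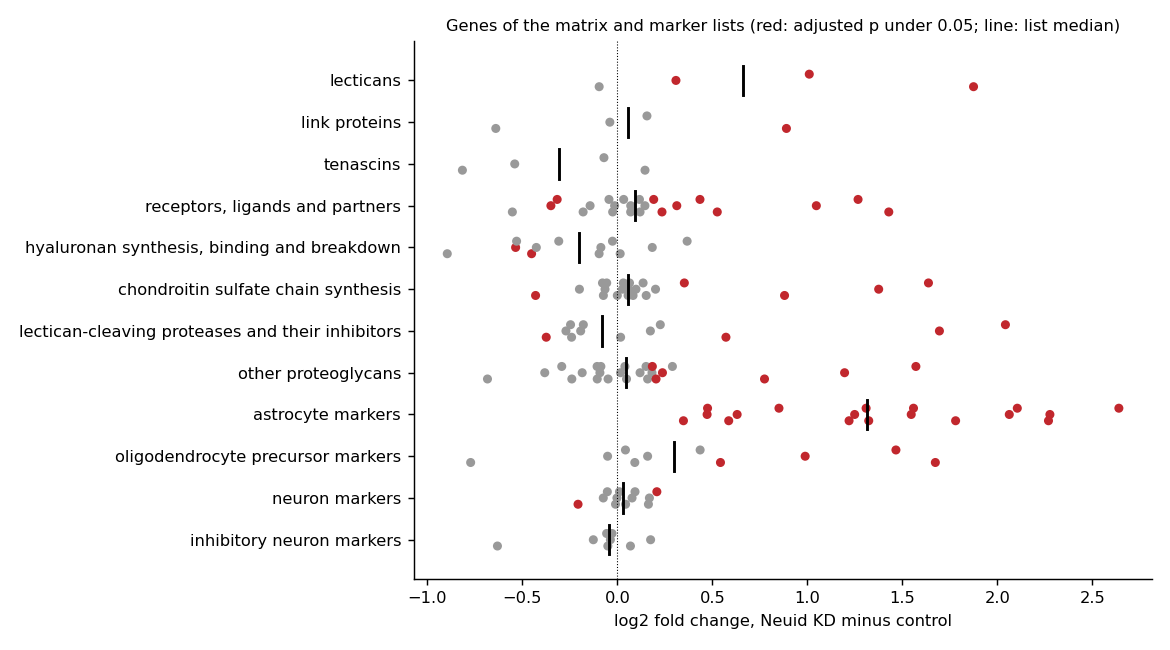
Log2 fold change between *Neuid* KD and control (x axis) of the tested genes in 8 matrix lists and 4 cell type lists (rows). Each point is a gene, red where the adjusted p is under 0.05, and the black line is the median of the list. All 18 astrocyte markers lie above 0, with a median of 1.32, and the neuron markers lie close to 0.

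Markers of astrocytes, and some of those of oligodendrocyte precursors, moved with the members that rose. Over all tested genes 6.31% rose. All 18 tested astrocyte markers were higher in *Neuid* KD (median log2 fold change 1.32; *Gjb6* had too few reads), and their summed level was 2256 to 2856 CPM in control libraries and 5506 to 6134 CPM in *Neuid* KD libraries. The largest changes were those of *S100b* (2.64, adjusted p = 3.10e-09) and *Apoe* (2.28, adjusted p = 2.92e-12). Of 10 oligodendrocyte precursor markers 4 rose, *Olig2* (1.67, adjusted p = 8.82e-11), *Olig1* (1.47, adjusted p = 1.29e-10) and, named after their values were seen, *Sox6* (0.99, adjusted p = 2.59e-09) and *Lhfpl3* (0.54, adjusted p = 0.0499, with overlap between the groups and a pass in 6 of 23 alternative settings), and the sum of the list was 122 to 143 CPM in control and 292 to 336 CPM in *Neuid* KD. The defining precursor markers *Pdgfra* (0.44, adjusted p = 0.223), *Cspg4* (0.16, adjusted p = 0.63) and *Sox10* (0.09, adjusted p = 0.954) did not pass. The part of these cell types in the levels of *Bcan*, *Ncan*, *Ptprz1*, *Cspg5* and *Vcan* was not tested.

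The labelled cell type was present in both groups, as the 12 neuron markers summed to 6929 to 8159 CPM in control and to 6847 to 8237 CPM in *Neuid* KD libraries. Of these, *Nefm* rose (0.21, adjusted p = 0.0242) and *Elavl4* fell (-0.21, adjusted p = 0.0161), beside 6.31% and 2.42% of all tested genes. With single libraries left out, the call of *Nefm* was lost in 8 of 12 fits (adjusted p 0.0506 to 0.162) and that of *Elavl4* in 5 (0.0572 to 0.0835). Of the 8 tested inhibitory neuron markers 0 passed in edgeR's test, and 1 was higher and 2 were lower at an unadjusted p under 0.05. DESeq2 called 1 of them lower, beside 1004 of all 19578 tested genes. The summed level of the list was 281 to 315 CPM in control and 246 to 308 CPM in *Neuid* KD. The largest differences in that list were those of *Vip* (-0.63, adjusted p = 0.244) and *Slc32a1* (0.17, adjusted p = 0.192), and *Pvalb*, a marker of many cells with perineuronal nets, had too few reads. Markers with enough reads to be tested were 5 of 9 for myelinating oligodendrocytes and 4 of 10 for microglia. They were 6 of 7 for endothelium and 10 of 10 for fibroblasts and mural cells. Among all of these 0 rose, also at an unadjusted p under 0.05 and in DESeq2, and 1 fell, *Mbp* (-0.66, adjusted p = 0.000973, named after its value was seen). Over all tested genes 6.31% rose and 2.42% fell, so counts of 0 risen and 1 fallen in lists this short are near the background. The summed level of microglia markers was 6.60 to 14.4 CPM in control and 5.87 to 13.6 CPM in *Neuid* KD, and no marker of any list was at 0 in every library.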

How the data were processed

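RNA was sequenced as SMARTer stranded total RNA libraries, 6 per group, with groups taken from the sample labels. Per the study's methods, the authors aligned reads with STAR to mm10 (GRCm38) and counted them with featureCounts, and the deposited values are raw counts per gene without normalization. The main analysis used edgeR 4.0.16 (R 4.3.3): filterByExpr, TMM scaling and a quasi-likelihood fit on group alone, with Benjamini-Hochberg adjustment over all 19578 genes. The study's methods used DESeq2 with RUVseq. Standard errors are of the log2 fold change. Levels per kb use the merged exon length of GENCODE, and log2 ratios a prior count of 2. The fit was tested on simulated data. Depth ranged from 11152556 to 30914714 reads. Alternatives were DESeq2 (1.42.0), other scalings, no low-count filter, a replicate block, 1 RUVs factor, a background covariate, library sets by background, GC and length offsets, and each library left out. Named were all members, from the other lists up to 4 passing genes in each direction with the largest change, untested genes, and the top 2 genes of the marker lists shown in detail. The members and lists were chosen with earlier results of these data known.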

Additional observations from a re-analysis of the deposited data

Results flagged for a closer look

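Libraries standing apart from the others of their group were looked for with Dixon's test among 40 sets of 6 values, and 4 were found, where chance gives about 1 in 20. *Bcan* was at 237 CPM in *Neuid* KD replicate 6, while the other 5 KD libraries lay between 185 and 199 CPM. In *Neuid* KD replicate 1, the shallowest library, *Ncan* was at 1144 CPM (others 1367 to 1468) and *Tnr* at 69.0 CPM (others 101 to 108). The log2 ratio *Ptprz1*/*Cspg5* was 1.56 in control replicate 3, and 1.36 to 1.41 in the other controls. Without *Neuid* KD replicate 1 the adjusted p of *Tnr* was 0.0511.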

How the results depend on the processing

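Over 23 alternatives per gene, *Bcan*, *Ncan* and *Ptprz1* passed in all, *Cspg5* in 22 and *Vcan* in 20, and 0 members were lower in any. With GC and length offsets 3 members were higher, in place of 5, and every other setting gave 4 or 5. Of the 9 pair ratios 8 passed, and 7 or 8 did in the alternatives that could be tested; within the library sets by background no p could reach the threshold, and *Hapln1*/*Hapln4* reversed there to -0.21 in the libraries under 100 CPM. *Hapln4* reversed to 0.0457 with 1 RUVs factor, 0.0264 with DESeq2 and that factor, 0.0344 with the background covariate, 0.31 in the libraries under 100 CPM and 0.0379 with the offsets, and with each library left out it ran from -0.15 to 0.0805. The cause was not tested. Genes higher numbered 1235 and became 711 without a low-count filter, 651 in the libraries with at least 100 CPM, 396 with the offsets and 822 (without *Neuid* KD replicate 2) to 1208 with 1 library left out. Genes lower numbered 473 and became 1259 with upper quartile scaling, 1004 with DESeq2, 229 without the filter, 988 with 1 RUVs factor, 1376 with DESeq2 and that factor, 987 with the background covariate, 205 and 799 in the libraries with at least and under 100 CPM, 103 with the offsets, and 355 to 780 (without *Neuid* KD replicate 1) with 1 library left out. Higher genes were thus 72.3% of all calls, and 45.5% with upper quartile scaling, which moved the median of all tested genes to -0.09. Same-numbered libraries of the groups correlated in their deviations at -0.637 to 0.774, over 0.1 in 2 of 6, so the numbers were not taken as pairs. The replicate block gave 1299 genes higher and 542 lower, with the same number of members, 5, and *Tnc*/*Tnr* at an adjusted p of 0.0703 with sign flips within pairs. Depth limits *Hapln4*, *Hapln2* and *Hapln3*, which held 1 to 81 reads per library.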
